A study of Saccharomyces cerevisiae with 48 samples.

Results

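CIT2, the peroxisomal citrate synthase gene of Saccharomyces cerevisiae, was followed together with YCR006C, the open reading frame whose counted interval overlaps it, and with 6 enzyme genes around the entry into the tricarboxylic acid (TCA) cycle: DLD3, PYC1, CIT1, ACO1, IDH1 and IDH2. These 8 genes, of 6465 in the count files, were taken by name: CIT2 (YCR005C), YCR006C, DLD3 (YEL071W), PYC1 (YGL062W), CIT1 (YNR001C), ACO1 (YLR304C), IDH1 (YNL037C) and IDH2 (YOR136W). Earlier values of these data had drawn attention to CIT2 and YCR006C in RDY236 under IAA and in RDY249 under both treatments. For the 8 genes, the comparisons of those libraries are therefore given below as levels and differences with no test. Lists of other genes were tested in them.

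When yeast mitochondria lose respiratory function, the retrograde pathway carries a signal to the nucleus, where the paired transcription factors Rtg1 and Rtg3 switch on genes that keep up the supply of citrate and of 2-oxoglutarate for glutamate synthesis. CIT2 is the classical readout of that pathway, and DLD3, which encodes a cytosolic dehydrogenase of D-2-hydroxyglutarate and D-lactate, is another of its targets. PYC1 encodes a pyruvate carboxylase that makes oxaloacetate. CIT1 encodes the mitochondrial citrate synthase, ACO1 the aconitase that turns citrate into isocitrate, and IDH1 and IDH2 the subunits of the isocitrate dehydrogenase that makes 2-oxoglutarate. In respiring cells the HAP complex drives CIT1, ACO1 and the IDH genes.

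The study asked how the domains of Bdf1, a yeast protein of the BET family, contribute to transcription. SLAM-seq measured the newly made RNA: in it, 4-thiouracil (4tU) taken up during a short pulse makes labelled bases, once alkylated, read as C in place of T. A T>C read here carried at least 2 such conversions. Each of the 16 groups of 8 strains under IAA and DMSO held 3 libraries lettered A to C, which the study's design text calls biological replicates, and p-values measure the spread between these libraries. IAA (1 mM, 3 h) triggers destruction of the degron-tagged proteins, DMSO is its solvent, and 5 mM 4tU followed for 6 min per the labels, while the study's methods state a shorter pulse.

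All 8 strains shared OsTIR1, the auxin receptor of the degron, driven by the GPD1 promoter, and endogenous Bdf1 and Bdf2 tagged with 3xV5-mAID. RDY251, RDY249, RDY247, RDY237, RDY236, RDY235 and RDY234 also held a further BDF1 copy without the tag, driven by the BDF1 promoter on a plasmid integrated at TRP1. By the study's strain list the copy had 4 substitutions in the ET domain in RDY251 (E567A, E569A, D571A, D573A), D571A and D573A alone in RDY249, no B and BID regions in RDY247, both bromodomains mutated in RDY237, the second in RDY236 and the first in RDY235. It was unmodified in RDY234, and RDY73 had no further copy. Library numbers in the labels form an earlier series (RDY234 to RDY237 and RDY251) and a later series (RDY73, RDY247 and RDY249), so a strain of one series compared with a strain of the other differs in series as well, and strain and series cannot be told apart there.

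The promoters of the retrograde targets and the stretch shared by CIT2 and YCR006C bear on the results that follow. Rtg1 and Rtg3 bind the R box, whose core is GTCAC, or GTGAC on the other strand. A search of the 300 bases before each start codon, on both strands and with no motif overlapping another, found the core before CIT2, DLD3 and YCR006C and no match in those windows of the other 5 genes. The core stood in 1588 of 5994 such windows of the genome, 26.5%. The windows below come from the RefSeq R64 genome, read 5′ to 3′ on the gene's strand, with the core in capitals.
CIT2, chrIII:122507-122536, minus strand: cgtatgaaattgGTGACgttaatctaaaga
DLD3, chrV:16189-16218, plus strand: cagttgGTGACcgccaaatctaaGTCACgc
YCR006C, chrIII:123116-123145, minus strand: cccaacagcatgtGTGACctctcttctcac
Counted from the start codon, the core began at -196 before CIT2, at -129 before YCR006C, and at -160 and -143 before DLD3. The deposited count tables extend each gene by 250 bases past its 3′ end. The CIT2 interval ran over chrIII:120696-122328 and that of YCR006C over chrIII:122280-123003, both on the minus strand, with 201 bases between the 2 genes and 49 bases counted for both. The shared stretch is the start of the CIT2 coding sequence, with its start codon in capitals.
Shared by CIT2 and YCR006C, chrIII:122280-122328, minus strand: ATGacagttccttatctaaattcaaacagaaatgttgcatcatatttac
A read in that stretch cannot be given to 1 of the 2 genes. The study's methods describe 3′ mRNA libraries, while the stretch is at the 5′ end of CIT2, and how many reads fell in it was not measured. The window with the core before CIT2 also lies inside the YCR006C interval and reaches into the YCR006C gene. The other 6 intervals overlapped no other on their strand. They ran over chrV:16355-18095 (DLD3, plus), chrVII:385196-388982 (PYC1, plus), chrXIV:629372-631061 (CIT1, minus), chrXII:734962-737548 (ACO1, minus), chrXIV:557670-559002 (IDH1, minus) and chrXV:580250-581609 (IDH2, plus), each holding a protein-coding gene and the 250 bases after it.

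The libraries held 3301563 to 10699839 S. cerevisiae reads and 42821 to 1163027 T>C reads. Schizosaccharomyces pombe cells mixed in before RNA extraction, at a fixed ratio of optical density, gave 336128 to 1242931 reads, from which a size factor per library was made. Normalised reads are counts divided by that factor. The plasmid marker TRP1 had 2.69, 1.01 and 1.11 normalised T>C reads in the RDY73 DMSO libraries and was higher in every library of the 7 strains with the plasmid under DMSO, and newly made BDF1 was also higher in those strains than in RDY73 under DMSO. Both run as the labels say. All 8 genes passed the filter of a mean of at least 10 T>C reads, with means of 22.3 for PYC1 to 164.5 for CIT2. The thinnest values were those of PYC1 in RDY73 IAA, where the 3 libraries held 9 T>C reads in all, of CIT1 in RDY251 IAA with 13, and of YCR006C in RDY73 IAA with 14.

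Newly made CIT2 RNA fell in RDY73 when Bdf1 and Bdf2 were destroyed, to 17.1, 11.5 and 13.7 normalised T>C reads under IAA, against 255, 211 and 333 under DMSO. The groups lie far apart, and the log2 change was -4.21 ± 0.25 (SE, adjusted p = 1.3e-30) by edgeR's quasi-likelihood test with Benjamini-Hochberg adjustment over all 5118 genes tested, which gave all adjusted p-values below. Genes are described as called, lowered or raised where that adjusted p was under 0.05 and the difference at least 2-fold. With unmodified BDF1 in RDY234, CIT2 had 248, 214 and 266 under IAA, against 373, 233 and 281 under DMSO, and the groups overlapped (log2 -0.28, adjusted p = 1). Under IAA the means of the variants lay between those of these strains. CIT2 had 26.9, 18.4 and 32.2 under IAA in RDY251, against 113, 153 and 156 under DMSO. In RDY237 it had 98.7, 79.0 and 104 under IAA, against 287, 262 and 200.4 under DMSO. In RDY247 it had 71.0, 56.5 and 73.7 under IAA, against 177, 109 and 190.0 under DMSO. In all 3 of these strains every IAA library was below every DMSO library, and CIT2 fell in each. The log2 change was -2.42 ± 0.24 (SE, adjusted p = 1.5e-16) in RDY251, -1.41 ± 0.22 (SE, adjusted p = 8.3e-09) in RDY237 and -1.22 ± 0.24 (SE, adjusted p = 3.2e-06) in RDY247. In RDY235 CIT2 had 160.3, 159 and 177 under IAA, against 287, 245 and 229.6 under DMSO, which did not overlap but missed the threshold (log2 -0.62, adjusted p = 0.81).

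RDY249 and RDY236 helped to choose the genes, so their values are a description. CIT2 had 37.5, 71.6 and 43.5 normalised T>C reads in RDY249 under IAA, against 182, 209 and 193 under DMSO, a log2 difference of -1.93 ± 0.24 (SE). In RDY236 it had 134, 156 and 182 under IAA, against 247, 269 and 391 under DMSO, a log2 difference of -0.94 ± 0.21 (SE). The groups did not overlap in either strain. Ordered by the mean under IAA, CIT2 stood at 14.1 in RDY73, 25.8 in RDY251, 50.8 in RDY249, 67.0 in RDY247, 94.0 in RDY237, 157 in RDY236, 165 in RDY235 and 243 in RDY234. The libraries of RDY249 overlapped those of RDY247, and those of RDY236 overlapped those of RDY235, while the other neighbours in that order were apart. Since the S. pombe cells were added by optical density, less RNA per cell and fewer intact cells per unit of density cannot be told apart in any of these values.

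**Figure D1:**
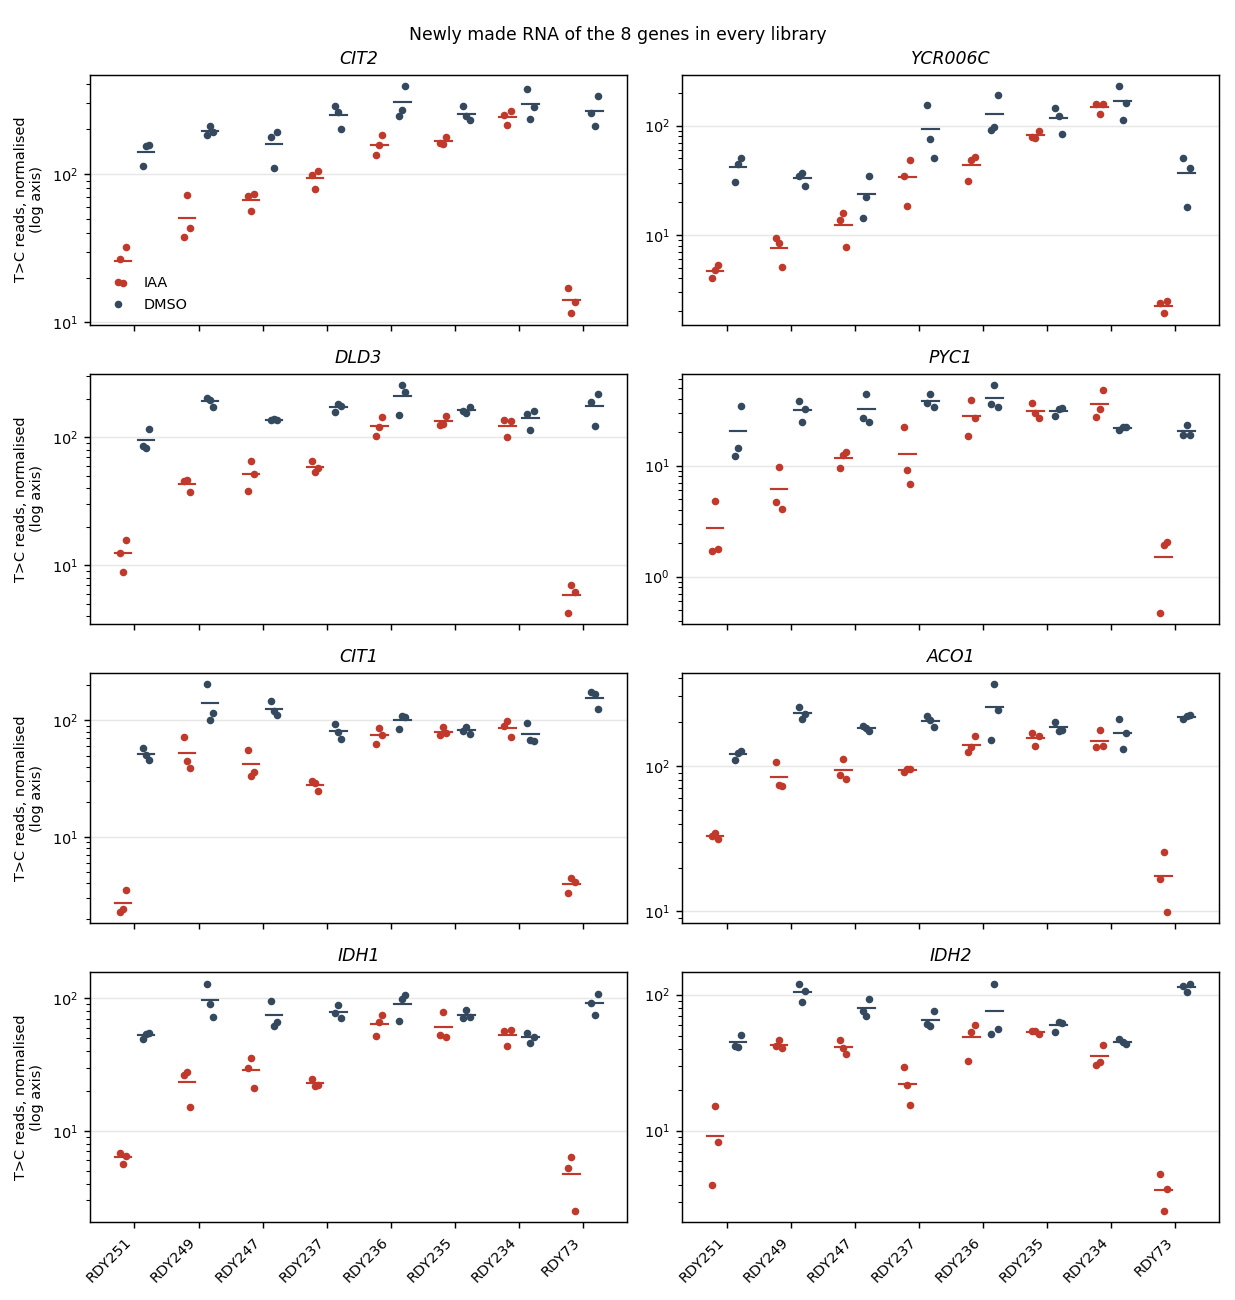
Normalised T>C reads (log axis) of the 8 genes in each of the 48 libraries, with IAA in red and DMSO in dark blue for each strain, 1 point per library and a bar at the mean of 3. All IAA points of RDY73 lie below its DMSO points for every gene, while in RDY234 the points of the 2 treatments overlap for CIT2.

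Loss of Bdf1 and Bdf2 with no further copy lowered all 8 genes, in a comparison where 99.9% of the genes tested were called. YCR006C had 2.38, 1.92 and 2.49 normalised T>C reads in RDY73 under IAA, against 50.3, 18.2 and 40.9 under DMSO (log2 -3.93, adjusted p = 2.0e-14). DLD3, a retrograde target like CIT2, had 4.28, 7.04 and 6.21 under IAA, against 188, 121 and 217 under DMSO (log2 -4.89, adjusted p = 7.5e-33). PYC1 had 0.476, 1.92 and 2.07 under IAA, against 18.9, 23.2 and 18.8 under DMSO (log2 -3.68, adjusted p = 1.7e-11). No IAA library reached any DMSO library for these genes, and the replicate A value of PYC1 rests on a single T>C read. Among the mitochondrial enzymes, CIT1 had 3.33, 4.48 and 4.14 under IAA, against 174, 169 and 125 under DMSO (log2 -5.26, adjusted p = 3.9e-33). ACO1 had 16.6, 25.6 and 9.94 under IAA, against 208, 220.4 and 223 under DMSO (log2 -3.69, adjusted p = 1.6e-27). The IDH subunit genes moved alike, with no overlap of the groups. IDH1 had 5.23, 6.40 and 2.49 under IAA, against 92.5, 74.8 and 107 under DMSO (log2 -4.31, adjusted p = 2.1e-26). IDH2 had 4.76, 2.56 and 3.73 under IAA, against 117, 104 and 119 under DMSO (log2 -4.87, adjusted p = 1.7e-28). The median change of the 8 genes was -4.26, against -5.57 over all genes tested, and each of the 8 lay above that median, from PYC1 at -3.68 to CIT1 at -5.26.

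In RDY251, with 4 substituted residues in the ET domain, all 8 genes were again lowered, as were most genes (99.1% called). CIT1 fell most, to 2.29, 2.40 and 3.51 normalised T>C reads under IAA, against 58.0, 50.3 and 45.9 under DMSO (log2 -4.16, adjusted p = 3.4e-20). ACO1, which acts on the citrate that CIT1 and CIT2 make, fell least of the 8, to 33.1, 34.4 and 31.6 under IAA, against 110.0, 122 and 127 under DMSO (log2 -1.86, adjusted p = 3.4e-12). YCR006C had 4.00, 4.80 and 5.27 under IAA, against 30.3, 44.1 and 50.6 under DMSO (log2 -3.12, adjusted p = 5.8e-12). Neither gene's groups overlapped. DLD3 had 12.6, 8.81 and 15.8 under IAA, against 85.8, 82.1 and 116 under DMSO (log2 -2.88, adjusted p = 6.3e-19). IDH1 had 6.86, 5.60 and 6.44 under IAA, against 49.4, 53.8 and 54.5 under DMSO (log2 -3.02, adjusted p = 2.9e-16). The other IDH subunit gene spread more between its IAA libraries, with no overlap. IDH2 had 4.00, 15.2 and 8.20 under IAA, against 41.6, 41.4 and 50.6 under DMSO (log2 -2.34, adjusted p = 2.2e-11). PYC1 had 1.71, 4.80 and 1.76 under IAA, against 12.1, 14.5 and 34.4 under DMSO (log2 -2.89, adjusted p = 9.6e-09). CIT1 was the only 1 of the 8 below the median change of all genes tested, -3.48.

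In RDY237 and RDY247 a smaller share of all genes was called than in RDY73 and RDY251, and the counts among the 8 are given beside that share. In RDY237, with both bromodomains mutated, all 8 fell, beside 90.5% of the genes tested. The changes ran from -1.80 for IDH1 to -1.12 for ACO1, around the median of all genes at -1.61. YCR006C had 34.7, 18.3 and 48.7 under IAA, against 153, 75.1 and 51.0 under DMSO (log2 -1.46, adjusted p = 2.9e-06). The groups were apart by little, its highest value is DMSO replicate A, and without that library the change was -0.91 (adjusted p = 0.0048), under 2-fold. In RDY247, without the B and BID regions, 5 of the 8 fell, beside 76.7% of the genes tested: CIT2, DLD3, PYC1, IDH1 and CIT1. CIT1 had the largest of these changes, with 56.1, 33.5 and 36.3 under IAA, against 146, 121 and 112 under DMSO (log2 -1.55, adjusted p = 4.8e-08). The other 3 lay just under 2-fold, with -0.99 (adjusted p = 0.027) for YCR006C, -0.98 (adjusted p = 5.6e-05) for ACO1 and -0.95 (adjusted p = 0.00071) for IDH2. Leaving out 1 library of RDY247 took each of them past 2-fold in at least 1 case, up to -1.22 for YCR006C without DMSO replicate A.

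With unmodified BDF1 (RDY234, where 0.0% of genes were called) and with the first bromodomain mutated (RDY235, where 0.0195% were), no gene of the 8 was called by edgeR. At an unadjusted p under 0.05, 1 gene passed in RDY234 and 2 in RDY235. PYC1 was the 1 gene in RDY234, with 27.3, 32.2 and 47.5 normalised T>C reads under IAA, against 20.7, 22.4 and 22.1 under DMSO (log2 0.72, adjusted p = 1). The groups did not overlap, but the difference did not pass once adjusted over all genes. DESeq2 called none of the 8 in either strain. In RDY236 the 8 log2 differences ran from -1.53 for YCR006C to -0.44 for CIT1, around a median of all genes of -0.58 (5.3% of genes called). In RDY249 they ran from -2.33 for PYC1 to -1.28 for IDH2, around -1.81 (94.6%). Those are values of comparisons that helped to choose the genes. DMSO replicate B of RDY236 stood above its 2 partners for ACO1 (151, 363 and 244 in replicates A, B and C) and for IDH2 (51.0, 121 and 56.1).

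The difference between a strain's response and that of RDY234 was also tested. It was called for all 8 genes in RDY73 (99.9% of genes called) and RDY251 (99.0%), for 7 in RDY237 (88.2%), for 4 in RDY247 (69.8%) and for none in RDY235 (0.0%). ACO1 was the gene not called in RDY237 (log2 -0.93, adjusted p = 0.0034), though it was called without DMSO replicate A of RDY234 (-1.11, adjusted p = 0.0011). In RDY247 the 4 were PYC1 (log2 -2.19, adjusted p = 0.00025), CIT1 (log2 -1.73, adjusted p = 2.8e-05), IDH1 (log2 -1.48, adjusted p = 0.00047) and DLD3 (log2 -1.24, adjusted p = 0.00053). CIT2 in RDY247 differed from RDY234 by -0.94 ± 0.31 (SE, adjusted p = 0.0057), just under 2-fold. That CIT2 difference was called without DMSO replicate A (-1.14) or IAA replicate B (-1.02) of RDY234. It was also called without DMSO replicate B (-1.16) or IAA replicate C (-1.01) of RDY247. YCR006C in RDY247 was called without DMSO replicate A of RDY234 (-1.11, adjusted p = 0.039). For YCR006C in RDY237, leaving out DMSO replicate A of RDY237 moved the difference to -0.74 (adjusted p = 0.067) and leaving out IAA replicate B to -0.99. CIT2 in RDY237 moved to -0.99 without DMSO replicate B of RDY234, and IDH2 in RDY237 to -0.99 without IAA replicate C of RDY237. As values with no test, the 8 differences ran from -3.05 for PYC1 to -0.93 for IDH2 in RDY249 (92.8%) and from -1.36 for YCR006C to -0.32 for IDH2 in RDY236 (0.0%). All these comparisons share the RDY234 libraries. Those under IAA also served in the comparisons that drew attention to CIT2 and YCR006C, so the tests of these 2 genes are not independent.

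**Figure D2:**
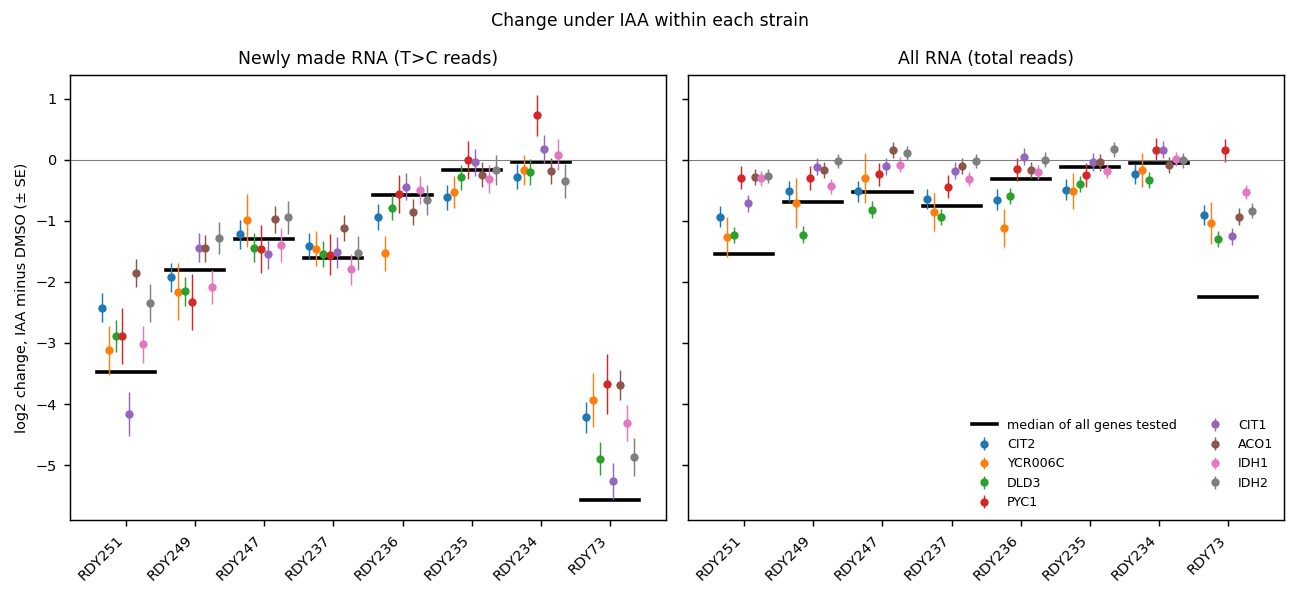
Log2 change between IAA and DMSO in each strain (points, bars ± SE of the fit over 3 libraries a group) for newly made RNA (left) and all RNA (right), with black bars at the median of all genes tested. In RDY73 all 8 points lie above the median of -5.57 in T>C reads and above -2.25 in total reads.

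Under IAA each variant was also set against RDY234, the strain with unmodified BDF1. The RDY234 IAA libraries served as well in the comparisons that drew attention to YCR006C and CIT2, so these 2 genes are not independent there. In RDY251 all 8 genes were lowered (99.2% of genes called), from -4.96 (adjusted p = 1.2e-24) for YCR006C to -2.02 (adjusted p = 1.6e-08) for IDH2. In RDY237, 6 were (84.2%), with DLD3 at -1.07 (adjusted p = 6.6e-06) and under 2-fold (-0.95) with scaling by S. pombe T>C reads. The 2 not called were ACO1 (log2 -0.66, adjusted p = 0.0034) and IDH2 (log2 -0.67, adjusted p = 0.027). In RDY247, 5 were (65.6%). IDH2 was 0.22 ± 0.29 (SE, adjusted p = 0.47) there, with 46.6, 40.6 and 36.3 normalised T>C reads in RDY247, against 30.5, 32.2 and 42.7 in RDY234, which overlapped. YCR006C had 13.8, 15.9 and 7.70 in RDY247, against 159, 129 and 159 in RDY234, a log2 difference of -3.62 (adjusted p = 8.7e-15), beside -1.84 (adjusted p = 7.7e-11) for CIT2. CIT1 was called by a narrow margin in RDY247 (log2 -1.01, adjusted p = 0.00018) and came to between -0.97 and -0.89 without IAA replicate A or B of RDY234 or B or C of RDY247. It was also under 2-fold with scaling by summed S. pombe reads (-0.98) and by S. pombe T>C reads (-0.79). In RDY235 none of the 8 was called by edgeR (0.137%), and 3 had an unadjusted p under 0.05. The lowest was YCR006C at -0.87 (adjusted p = 0.21). As values with no test, YCR006C differed from RDY234 by -4.32 ± 0.38 (SE) in RDY249 (66.9%) and by -1.77 ± 0.28 in RDY236 (1.93%), the lowest of the 8 in both. The highest was IDH2, at 0.27 in RDY249 and 0.44 in RDY236.

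YCR006C moved apart from CIT2 across the strains, although they share 49 bases. In total reads, YCR006C had 302 ± 76.9 normalised reads in RDY234 under DMSO and 78.1 ± 47.0 in RDY73 (mean ± SD, n = 3 each), while CIT2 had 550.3 ± 87.6 in RDY234 and 546 ± 101 in RDY73. The ratio of YCR006C to CIT2 total reads ran from 0.0679 to 0.221 over the 18 libraries of the later series (median 0.139) and from 0.212 to 0.582 over the 30 of the earlier one (median 0.368). The ranges overlapped only between IAA replicate A of RDY251 and IAA replicate A of RDY247. Within 6 of the 8 strains the treatments overlapped. In RDY234 it was 0.563, 0.575 and 0.577 under IAA, against 0.582, 0.471 and 0.577 under DMSO. In RDY73 it was 0.135, 0.112 and 0.143 under IAA, against 0.210, 0.0679 and 0.132 under DMSO. The 2 strains without overlap were RDY236 and RDY251. RDY236 had 0.251, 0.324 and 0.311 under IAA, against 0.365, 0.370 and 0.478 under DMSO. RDY251 had 0.212, 0.250 and 0.234 under IAA, against 0.251, 0.310 and 0.308 under DMSO. No test was made of these ratios. They include RDY236 under IAA and RDY249 under both treatments, whose CIT2 and YCR006C values drew attention to these genes. The ratios therefore describe the pattern alone. Strain and library series cannot be told apart in this pattern.

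**Figure D3:**
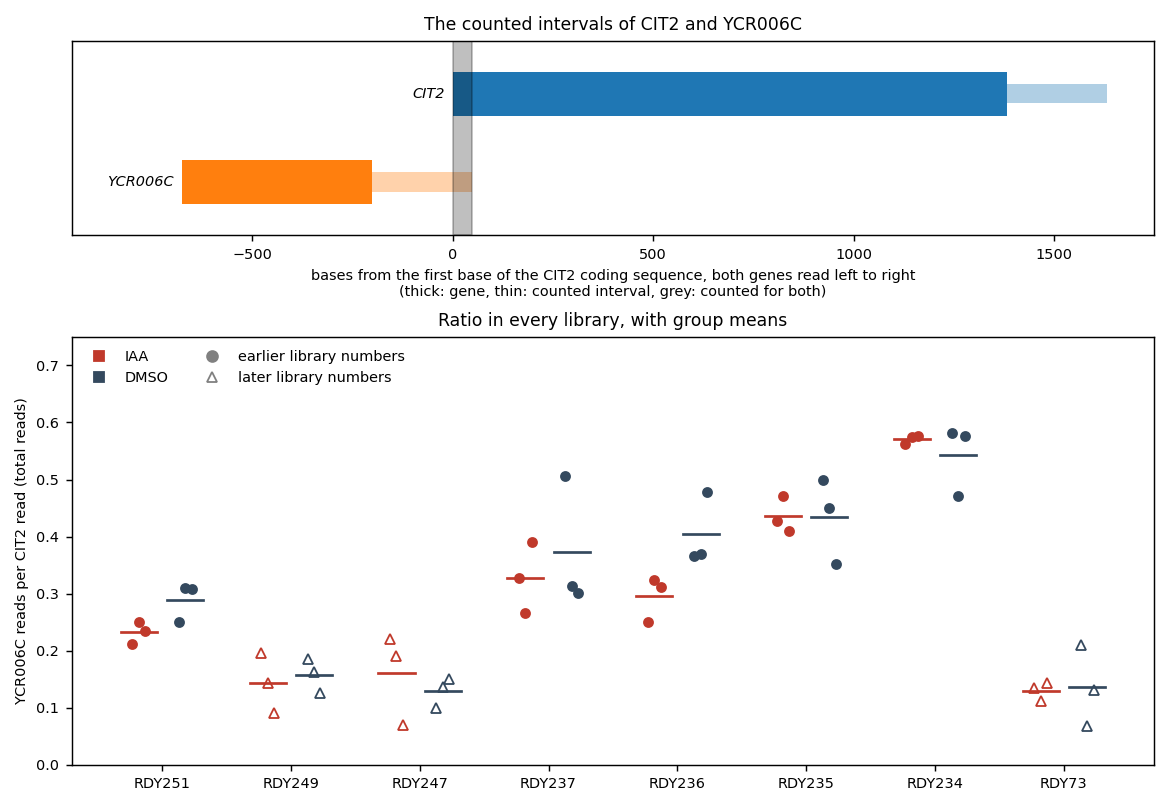
Top, the genes (thick) and counted intervals (thin) of CIT2 and YCR006C in bases from the CIT2 start, with the 49 shared bases in grey. Bottom, the ratio of YCR006C to CIT2 total reads in each library (circles for the earlier and triangles for the later library numbers, IAA red, DMSO dark blue, bars at group means), where the later libraries lie between 0.0679 and 0.221.

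Under DMSO, with the degron-tagged Bdf1 and Bdf2 still present, each strain with a further BDF1 copy was set against RDY73. In newly made RNA, calls among the 8 genes ran from none in RDY247 to 3 in RDY234. RDY234 to RDY237 and RDY251 also differ from RDY73 in library series, so the copy and the series cannot be told apart there. The RDY73 DMSO libraries also served in the comparison of RDY249 that drew attention to CIT2. Newly made YCR006C was 230.4, 113 and 162 in RDY234, against 50.3, 18.2 and 40.9 in RDY73, without overlap. It was raised over RDY73 in RDY234 (log2 2.19, adjusted p = 1.0e-09), RDY235 (log2 1.68, adjusted p = 1.7e-06), RDY236 (log2 1.78, adjusted p = 4.3e-07) and RDY237 (log2 1.34, adjusted p = 0.0002). Leaving out DMSO replicate A of RDY237, the highest library, took that strain's value to 0.80 (adjusted p = 0.066). CIT2 itself, which shares 49 bases with it, was not called in any of them, with differences of -0.09 to 0.18. CIT1 had 95.1, 68.4 and 66.2 normalised T>C reads in RDY234, against 174, 169 and 125 in RDY73, and IDH2 had 47.6, 44.9 and 43.2, against 117, 104 and 119. Neither overlapped, and both genes were lowered, with log2 differences of -1.04 (adjusted p = 0.00012) for CIT1 and -1.33 (adjusted p = 1.3e-05) for IDH2. In RDY251 they were lowered as well, at -1.60 (adjusted p = 2.9e-09) for CIT1 and -1.35 (adjusted p = 1.2e-06) for IDH2. In RDY234 the CIT1 difference fell just under 2-fold, between -0.98 and -0.94, without RDY73 replicate A or B or RDY234 replicate B or C. PYC1 was raised in RDY236 (log2 1.01, adjusted p = 0.011), but not without RDY236 replicate B (0.78, adjusted p = 0.12) nor without RDY73 replicate A (0.96) or C (0.96), nor with the libraries scaled by summed S. pombe reads (0.89). With that scaling CIT1 (-1.11) and IDH2 (-1.11) in RDY235, CIT1 in RDY237 (-1.08), and CIT2 (-1.04, adjusted p = 7.6e-06) and DLD3 (-1.02, adjusted p = 6.5e-06) in RDY251 passed the call by edgeR. With the size factors behind the normalised reads, 3 of the 8 genes were called in RDY234 (11.0% of genes called), 1 in RDY235 (11.6%), 2 in RDY236 (13.8%), 1 in RDY237 (10.5%), 2 in RDY251 (41.5%) and none by edgeR in RDY247 (2.54%), where 2 had an unadjusted p under 0.05. CIT2 was the lowest of the 8 in RDY247, at -0.75 (adjusted p = 0.02), a strain of the same library series as RDY73. In RDY249, also of that series, the 8 values ran from -0.45 for CIT2 to 0.62 for PYC1 (8.19%), with no test.

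Against RDY234, which shares the earlier library series, the picture under DMSO was different. The YCR006C differences were below 0, at -0.51 (adjusted p = 1) in RDY235, -0.41 (adjusted p = 0.28) in RDY236 and -0.85 (adjusted p = 0.077) in RDY237. None of the 8 was called by edgeR in RDY235 (0.0586% of genes called), RDY236 (1.86%) or RDY237 (0.762%), with 2, 5 and 4 at an unadjusted p under 0.05. Of the 5 in RDY236, 2 also had an adjusted p under 0.05, with differences under 2-fold. In RDY251, 2 of the 8 were lowered (42.3%). YCR006C had 30.3, 44.1 and 50.6 in RDY251, against 230.4, 113 and 162 in RDY234 (log2 -2.01, adjusted p = 2.0e-08). CIT2 had 113, 153 and 156 in RDY251, against 373, 233 and 281 in RDY234 (log2 -1.07, adjusted p = 1.5e-05). Neither gene's groups overlapped, while CIT1 (log2 -0.57, adjusted p = 0.022) and IDH2 (log2 -0.02, adjusted p = 0.93) were not called.

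**Figure D4:**
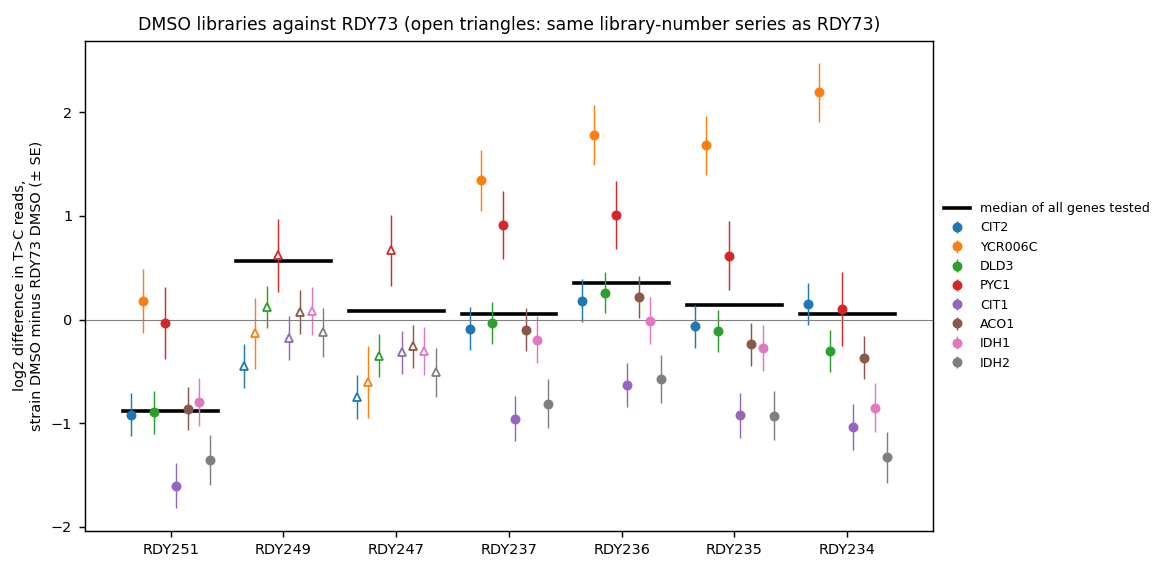
Log2 difference in T>C reads between each strain and RDY73 under DMSO (points, bars ± SE of the fit over 3 libraries a group, black bars at the median of all genes tested, triangles for the strains of the RDY73 library series). YCR006C stands highest in RDY234 to RDY237, between 1.34 and 2.19, while CIT1 and IDH2 lie below 0 in every strain.

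The whole RNA of CIT1, IDH2 and ACO1 did not overlap between the same series. Under DMSO the total reads of CIT1 ran from 936 to 1366 (median 1074) over the 9 libraries of the later series and from 483 to 636 (median 563) over the 15 of the earlier one. IDH2 ran from 1124 to 1398 in the later and from 509 to 827 in the earlier series, and ACO1 from 2985 to 4318 and from 1699.5 to 2805. These were 3 of the 8 genes, a share near that of all genes, since 30.9% of the 5907 genes tested in total reads did not overlap, nearly all of them higher in the later series. CIT2 overlapped widely, with 332 to 620.3 in the later and 318 to 645 in the earlier series. YCR006C ran the other way, with 29.3 to 123 in the later and 79.7 to 376 in the earlier series. PYC1, DLD3 and IDH1 overlapped.

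Total reads, which follow the RNA present, changed less than newly made RNA. In RDY73, 3 of the 8 genes were lowered in total reads, in a comparison where 87.3% of the 5907 genes tested were called. DLD3 had 591, 484 and 509.5 normalised total reads under IAA, against 1349, 1091 and 1471 under DMSO (log2 -1.30, adjusted p = 3.4e-13). CIT1 had 542, 485 and 447 under IAA, against 1243, 1140.2 and 1126 under DMSO (log2 -1.25, adjusted p = 7.2e-12), and its change was -0.98 with scaling by S. pombe T>C reads. YCR006C had 42.3, 30.1 and 41.0 under IAA, against 123, 29.3 and 81.8 under DMSO (log2 -1.04, adjusted p = 0.0038), where the 3 IAA libraries all lay within the range of the DMSO ones. Its call rests on DMSO replicate A, without which the change was -0.52 (adjusted p = 0.19), and it was -0.92 without IAA replicate B. PYC1 moved least, with 363, 298 and 482 under IAA, against 314, 268 and 450.0 under DMSO (log2 0.15, adjusted p = 0.43). CIT2 had 314, 268 and 286 under IAA, against 586, 432 and 620.3 under DMSO (log2 -0.91, adjusted p = 1.2e-06), a drop under 2-fold in all RNA beside 18.5-fold in newly made RNA. Without DMSO replicate B the CIT2 change in all RNA was past 2-fold (-1.06, adjusted p = 1.8e-07). All 8 lay above the median change of all genes, -2.25.

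The other strains gave fewer calls in total reads. In RDY251, YCR006C (log2 -1.27, adjusted p = 0.0004) and DLD3 (log2 -1.23, adjusted p = 6.7e-12) were lowered (78.3% of genes called). DLD3 had 262, 286 and 342 normalised total reads under IAA, against 665, 657 and 767 under DMSO, without overlap, and the other 6 changed by between -0.94 and -0.27, all above the median of -1.55. CIT2, among those 6, was called without DMSO replicate A (-1.02) or IAA replicate C (-1.06). No gene of the 8 was called by edgeR in RDY237 (25.8%), RDY247 (15.9%), RDY235 (0.135%) or RDY234 (0.0508%). In RDY237 and RDY247, 5 and 2 had an adjusted p under 0.05 but a change under 2-fold. In RDY235 and RDY234 none had, and 2 and 1 had an unadjusted p under 0.05. DLD3 and YCR006C in RDY237 passed 2-fold in some fits with 1 library left out, such as -1.02 for DLD3 without DMSO replicate A and -1.09 for YCR006C without DMSO replicate C. DLD3 was the lowest of the 8 in RDY237 (log2 -0.93, adjusted p = 4.7e-08) and in RDY247 (log2 -0.82, adjusted p = 1.3e-06), and it stood at -1.23 ± 0.13 (SE) in RDY249 with no test (21.7%). In RDY236, likewise with no test, YCR006C was the lowest, at -1.12 ± 0.31 (SE, 1.2% of genes called).

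Against the bulk of genes, some of the 8 kept a larger part of their T>C reads. With TMM scaling, which sets the bulk of genes near 0 (median of all genes -0.35 in RDY73), 3 of the 8 were called in RDY73, all raised (7.82% of genes were raised). ACO1 was raised most of the 3 (log2 1.65 ± 0.21 SE, adjusted p = 1.7e-09). CIT2 was raised by 1.16 ± 0.26 (SE, adjusted p = 0.00046). IDH1 was raised by 1.02 ± 0.33 (SE, adjusted p = 0.019), and fell under 2-fold without DMSO replicate B (0.91), IAA replicate A (0.93) or IAA replicate B (0.81). PYC1, at 1.59 ± 0.66 (SE, adjusted p = 0.077), was not called by edgeR, but it was by DESeq2 (1.59, adjusted p = 0.032) and by edgeR without IAA replicate A (2.08, adjusted p = 0.042). On the spike-in scale all 4 fell, so these values are relative to other genes. In RDY73 IAA the mean share of T>C reads was 0.871% for ACO1, 0.807% for IDH1 and 0.401% for PYC1. These lay below the 1.45% of the median gene, while CIT2, at 4.84%, lay above it. What share of unlabelled reads counts as T>C was not measured, and its part in these values was not tested. In RDY251 ACO1 (log2 1.54, adjusted p = 6.0e-10) and IDH2 (log2 1.02, adjusted p = 0.022) were the 2 called, both raised (6.21%). CIT2 was just under 2-fold (log2 0.98, adjusted p = 0.0016). IDH2 rests on IAA replicate B, without which it was 0.49 (adjusted p = 0.50), and came to 0.99 without DMSO replicate B. No gene of the 8 was called on this scale by edgeR in RDY237 (3.54%), RDY247 (2.95%), RDY235 (0.0586%) or RDY234 (0.0195%), with 1, 0, 1 and 1 at an unadjusted p under 0.05. The 1 gene in RDY237 also had an adjusted p under 0.05, with a change under 2-fold. As values with no test, the 8 ran from -0.52 for PYC1 to 0.55 for IDH2 in RDY249 (3.03%), and from -0.97 for YCR006C to 0.13 for CIT1 in RDY236 (0.606%).

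The share of a gene's reads that were T>C reads, which needs no spike-in, set CIT2 and YCR006C apart from the enzyme genes in every strain. CIT2 had 5.45, 4.30 and 4.78% T>C reads in RDY73 under IAA, against 43.5, 48.9 and 53.7% under DMSO. In RDY234 it had 54.6, 52.1 and 49.6% under IAA, against 57.8, 49.3 and 52.6% under DMSO. Under DMSO the CIT2 group means ran from 38.8% to 60.9%, rank 39 to 146 from the top of 5118 genes, where the median gene had 18.3% to 29.2%. YCR006C ran from 39.3% to 61.1% under DMSO. The other 6 were below the median gene in every DMSO group. DLD3 ran from 12.1% to 20.0%, CIT1 from 9.81% to 18.2%, IDH1 from 10.4% to 16.6%, ACO1 from 5.82% to 11.8%, IDH2 from 5.90% to 11.0% and PYC1 from 4.22% to 10.9%. Genes with many T positions in their reads can reach 2 conversions more often. Over whole counted intervals, the T content of the 8 genes was 27.8% to 31.5%, with 28.8% for the median gene. The T content of the reads themselves was not measured, and its part in these shares was not tested. In RDY251 CIT2 had 15.6, 10.6 and 14.6% under IAA, against 35.7, 42.4 and 38.4% under DMSO. PYC1 had the lowest share of the 8 in RDY73 IAA, a mean of 0.401%, where the median gene had 1.45%. With 3 libraries against 3, no exact test on these shares can go below p = 0.1, and none is given.

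**Figure D5:**
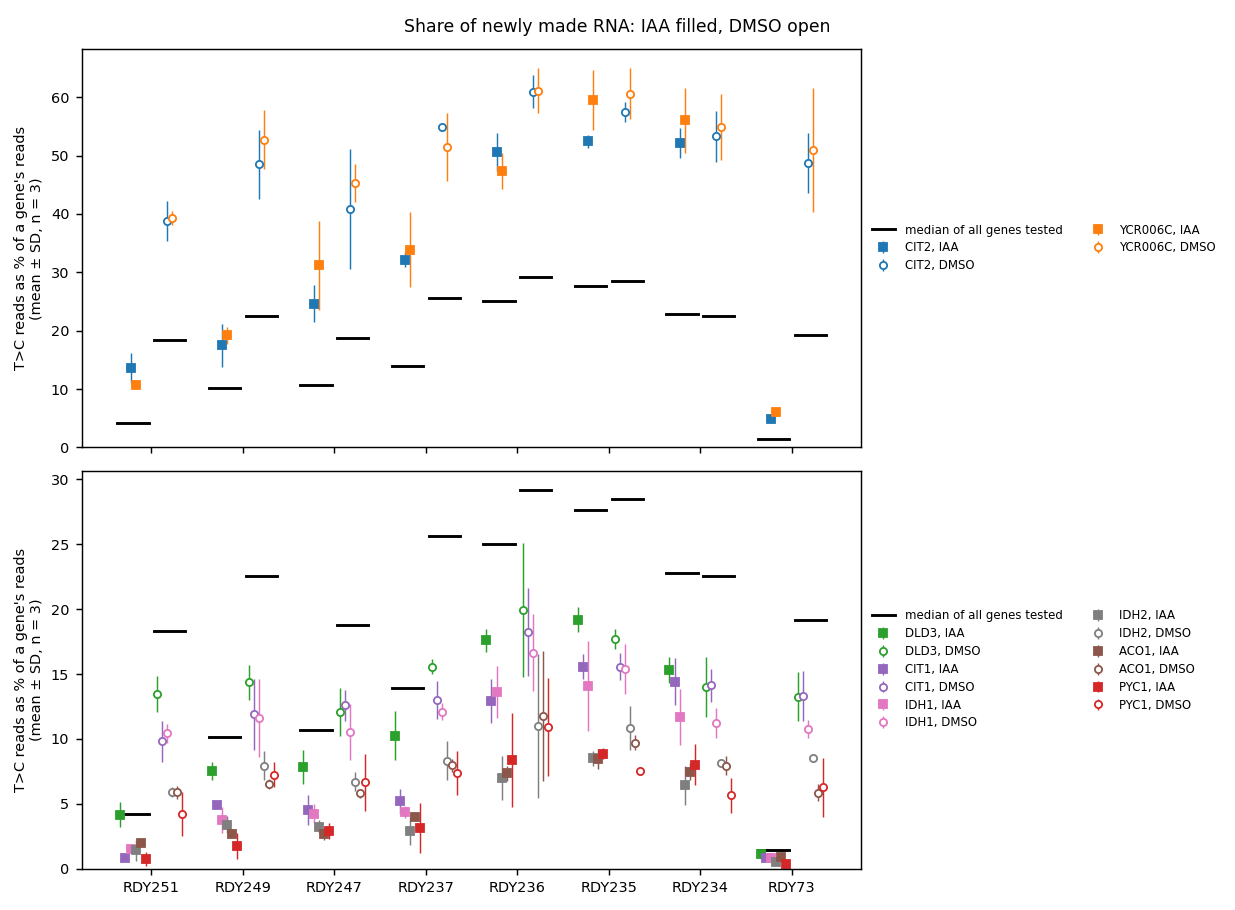
T>C reads as a percentage of a gene's reads (mean ± SD, n = 3) in each strain, IAA filled and DMSO open, with CIT2 and YCR006C in the top panel, the other 6 genes in the bottom panel and black bars at the median of all genes tested. CIT2 and YCR006C lie above the bar in every group, while the 6 enzyme genes lie below it under DMSO.

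The pattern of CIT2 over the groups was set beside that of every other gene. Over the 16 group means of log2 normalised T>C reads, each less the median gene, the Pearson correlation with CIT2 was 0.902 for DLD3, the highest of 5117 genes. The 5 closest genes outside the 8 were MPA43 (0.881), the tRNA genes YNCL0035C (0.862), YNCD0019C (0.857) and YNCM0035C (0.854), and RAV1 (0.850), each with a mean of 11.2 to 33.3 T>C reads a library. Of the other 7 genes, ACO1 stood at 0.782, PYC1 at 0.767, IDH1 at 0.721, YCR006C at 0.700 and IDH2 at 0.397. CIT1 stood apart, at -0.03. The points include RDY236 under IAA and RDY249 under both treatments, whose CIT2 values drew attention to these genes, and they share strains, libraries and the spike-in, so these correlations describe the pattern alone. Without the subtraction of the median gene, the 5 closest genes outside the 8 were LOT5, CUS2, YLL054C, PRP31 and FET5, none of them the same, and DLD3 ranked 21 (0.975).

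The genes around the 8 were counted as lists, chosen from general knowledge with earlier results of these data known. In RDY73 every listed gene tested was lowered in newly made RNA. These were the 8 retrograde regulators (RTG1, RTG2, RTG3, MKS1, GRR1, BMH1, BMH2 and LST8; median -5.14), 16 other genes of the TCA and glyoxylate cycles (-4.90), 8 genes of pyruvate entry (-5.22), 3 of glutamate and glutamine synthesis (-4.51), the 4 HAP genes (-6.11) and DLD1 and DLD2 (-5.17), beside -5.57 over all genes. Among the regulators BMH1, a 14-3-3 protein, fell least (-4.14 ± 0.24 SE, adjusted p = 8.7e-32) and GRR1, a ubiquitin ligase subunit, most (-5.57 ± 0.36, adjusted p = 6.7e-29). In the TCA list FUM1, fumarase, fell least (-3.96, adjusted p = 1.5e-12) and IDP3, the peroxisomal isocitrate dehydrogenase, most (-8.26, adjusted p = 4.4e-22). In RDY251 all these genes were lowered as well, with list medians of -3.09, -3.23, -3.00, -2.56, -3.05 and -4.29 in the same order, beside -3.48 over all genes. CIT3, IDP2, ICL1, MLS1 and GDH3 had too few T>C reads to be tested.

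In the other strains the lists were counted beside the share of all genes called. In RDY237 (90.5% of genes called), 8 of 8 regulators, 15 of 16 TCA genes, 8 of 8 pyruvate genes, 3 of 3 glutamate genes, 4 of 4 HAP genes and both other D-lactate dehydrogenase genes were lowered, and LSC2, a subunit of succinyl-CoA ligase, was not (-0.74, adjusted p = 0.070). In RDY249 (94.6%) all were lowered but HAP4 (-0.86, adjusted p = 0.00012) and HAP2, with HAP3 at -1.69 and HAP5 at -1.57. In RDY247 (76.7%), 7 of 8 regulators were lowered, with RTG1 lowest (-1.71, adjusted p = 0.00014) and BMH2 not called (-0.78). Also lowered there were 9 of 16 TCA genes, 6 of 8 pyruvate genes, 3 of 3 glutamate genes (GLT1 -1.34, GLN1 -1.06 and GDH1 -1.05), HAP3 (-1.95), HAP2 (-1.92), HAP5 (-1.30) and DLD2 (-1.26). HAP4, the activating subunit of the HAP complex, stood at -0.48 (adjusted p = 0.028) and SDH2, a subunit of succinate dehydrogenase, at -0.32 (adjusted p = 0.31). In RDY236 (5.3%) the 3 genes called were the malate dehydrogenase gene MDH2 (-1.48, adjusted p = 0.0016), IDP1 (-1.11, adjusted p = 0.0076) and FUM1 (-1.03, adjusted p = 0.01). In RDY234 (0.0%) and RDY235 (0.0195%) no listed gene was called by edgeR.

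Under DMSO few regulators were called against RDY73, and the TCA, pyruvate and HAP lists had calls in both directions. In the glutamate list GLN1 in RDY251 was the only call, and neither DLD1 nor DLD2 was called in any strain. Of 16 TCA genes, 3 were lowered and 1 raised in RDY234, 1 and 1 in each of RDY235 and RDY236, and 2 and 0 in RDY237. Of 8 pyruvate genes, 1 was lowered and 0 raised in RDY234, 1 and 1 in each of RDY235 and RDY237, and 1 and 3 in RDY236. Several genes below were named after their values were seen, so they do not stand for their lists. RTG1 was raised in RDY234 (1.05 ± 0.36 SE, adjusted p = 0.019), and at 0.91, 0.99, 1.00 and 0.95 it was not called in RDY235, RDY236, RDY237 and RDY247. No other regulator was called in those strains. SDH2 was lowered in RDY234 (-1.60), RDY235 (-1.36), RDY236 (-1.22), RDY237 (-1.31) and RDY251 (-2.04), and MPC3, a subunit of the mitochondrial pyruvate carrier, in the same 5 strains, at -1.59, -2.05, -1.48, -1.42 and -2.38. MDH1, the mitochondrial malate dehydrogenase gene, was lowered in RDY234 (-1.42), RDY237 (-1.01) and RDY251 (-1.91), LSC2 in RDY234 (-1.23) and RDY251 (-1.84), and HAP4 in RDY234 (-1.13) and RDY251 (-1.83). Other genes were raised. HAP5 was raised in RDY234 (1.47), and PYC2, the second pyruvate carboxylase gene, in RDY235 (1.11), RDY236 (1.26) and RDY237 (1.05). LAT1 (1.28) and PDA1 (1.77), subunits of pyruvate dehydrogenase, were raised in RDY236. In RDY251, where 41.5% of all genes were called, nearly all lowered, 3 of 8 regulators were lowered, RTG3 (-1.33), BMH1 (-1.27) and LST8 (-1.23), beside 8 of 16 TCA genes, MPC1 (-1.59), HAP3 (-1.13) and GLN1 (-1.79), and the regulator and TCA shares were near that of all genes. In the other strains 11.0% of genes were called in RDY234, 11.6% in RDY235, 13.8% in RDY236, 10.5% in RDY237, 2.54% in RDY247 and 8.19% in RDY249. In the strains that share the library series of RDY73, SDH2 and MPC3 were not called. In RDY247 the only listed gene called was PDA1 (1.06, adjusted p = 0.0079), with SDH2 at -0.58 (adjusted p = 0.35) and MPC3 at -0.51 (adjusted p = 0.27). In RDY249 FUM1 (1.05), MDH3 (1.11), SDH1 (1.29), LAT1 (1.19) and PDA1 (1.46) were raised.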

How the data were processed

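SLAM-seq counts of 48 libraries (8 strains, IAA or DMSO, 3 libraries each) were analysed. Per the labels and the study's methods, the authors trimmed reads with fastp 0.23.2, aligned and counted them with SLAM-DUNK over gene intervals of S. cerevisiae and S. pombe that run 250 bases past the 3′ end, and deposited, per interval, the count of reads and the count of T>C reads. The libraries held 3301563 to 10699839 S. cerevisiae reads. RefSeq matched 6462 of the 6465 intervals by locus tag, and 1316 intervals overlapped another on their strand. The no-4tU libraries were not analysed here, so what share of unlabelled reads would count as T>C was not measured.

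Size factors were medians of ratios over 4955 S. pombe genes. Genes with a mean count of at least 10 were fitted in 1 model of 48 libraries with edgeR 4.0.16 (R 4.3.3), by the quasi-likelihood test with Benjamini-Hochberg adjustment, and a gene was called where the adjusted p was under 0.05 and the fold at least 2. The steps were tested on simulated counts. Alternatives were summed S. pombe reads, S. pombe T>C reads, DESeq2 1.42.0, no filter, a replicate block, the compared groups alone, and leaving out each library.

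The 8 genes and the lists were chosen with earlier results of these data known. All 8 are named. Of a list, each called gene is named where fewer than 5 were called, otherwise the highest and the lowest, and SDH2, MPC3, HAP4, RTG1, LSC2, BMH2 and the genes lowered or raised in several strains are also named beyond that rule, after their values were seen. A result that this rule would name is not reported here.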

Additional observations from a re-analysis of the deposited data

Results flagged for a closer look

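The response to IAA, as a log2 change in newly made RNA, differed from that of RDY234 by edgeR's interaction test in 27 cases over the 8 genes. Of all genes tested, the same test called 99.9% in RDY73, 99.0% in RDY251, 88.2% in RDY237 and 69.8% in RDY247. In RDY73 the response minus that of RDY234 was -3.93 for CIT2, -3.76 for YCR006C, -4.70 for DLD3, -4.40 for PYC1, -3.50 for ACO1, -4.39 for IDH1, -5.44 for CIT1 and -4.52 for IDH2. In RDY251 it was -2.14 for CIT2, -2.96 for YCR006C, -2.69 for DLD3, -3.62 for PYC1, -1.67 for ACO1, -3.10 for IDH1, -4.34 for CIT1 and -2.00 for IDH2. CIT1 was the most different of the 8 in both strains and ACO1 the least. In RDY237 it was -1.13 for CIT2, -1.29 for YCR006C, -1.35 for DLD3, -2.28 for PYC1, -1.88 for IDH1, -1.70 for CIT1 and -1.19 for IDH2. In RDY247 it was -1.24 for DLD3, -2.19 for PYC1, -1.48 for IDH1 and -1.73 for CIT1. PYC1 was the most different in these 2 strains, where the RDY234 response of PYC1 was above 0 (0.72). RDY73 and RDY247 are of the later library series and RDY234 of the earlier, and there a strain effect and a series effect cannot be told apart. The RDY234 IAA libraries also served in the comparisons that drew attention to CIT2 and YCR006C. The tests of these 2 genes are therefore not independent.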

How the results depend on the processing

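No value of the 8 genes changed direction across a call under any setting. Over single values, 1463 of 1488 kept their side of the threshold under the alternatives to scaling, tool, filter, block and fit, 12 lost a call and 13 gained one, and when 1 library was left out 1765 of 1824 kept it, 24 lost and 35 gained. Newly made RNA between IAA and DMSO gave 29 calls of 48, and 28 to 31 with 1 library left out. The 29 fell in RDY73, RDY251, RDY237 and RDY247, where 76.7% to 99.9% of all genes tested were called. For the counts that follow, the shares of all genes called are given above by strain. Against RDY234 under IAA there were 19 of 32, and 18 to 19. Against RDY73 under DMSO there were 9 of 48, and 7 to 11, with 13 under scaling by summed S. pombe reads. The responses set against RDY234 gave 27 of 40, and 26 to 30. Total reads gave 5 of 48, and 4 to 6, with 3 under scaling by S. pombe T>C reads. TMM scaling gave 5 of 48, and 4 to 5, with 3 under no filter on low counts, where IDH1 in RDY73 came to 0.90 and IDH2 in RDY251 to 0.94. Under DMSO, RDY235, RDY236, RDY237 and RDY251 gave 6 calls against RDY73 and 2 against RDY234, which shares their library series. The cause of these shifts was not tested. Of 24 correlations between the deviations of IAA and DMSO libraries with the same letter, from -0.0698 to 0.123, 2 were over 0.1, so the letters were not taken to pair samples. With the replicate block there were 30 calls between IAA and DMSO, YCR006C in RDY247 (-1.02) being added, and the counts for the other comparisons did not move. Depth limits PYC1, CIT1 and YCR006C most, whose lowest groups held 9, 13 and 14 T>C reads.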
